A study of Homo sapiens with 9 samples.

Results

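The aminoacyl-tRNA synthetases are the enzymes that join each amino acid to its transfer RNA. They were listed by gene symbol, with no measured value in the rule, as 36 genes, 20 whose product works in the cytosol and 16 whose product works in mitochondria, out of 36337 gene names on the array. Messenger RNA was measured in RKO, a human colorectal cancer cell line, on 9 single-colour Agilent arrays. The siRNA part had 4 groups of 2 arrays, namely siCONT (control siRNA plus mock), siUHRF1 (siRNA against UHRF1 plus mock), siCONT + TSA and siUHRF1 + TSA. The replicate 1 arrays with UHRF1 depletion carried siUHRF1-1 and the replicate 2 arrays siUHRF1-2, so their spread also holds the difference between the siRNAs. Trichostatin A (TSA), an inhibitor of histone deacetylases, was used at 300 nM over the last 24 h, once the siRNA had acted for 72 h. The ninth array held cells given 1 µM 5-aza-dC, an inhibitor of DNA methyltransferases, for 72 h without siRNA. UHRF1 is the protein that brings DNA methyltransferase 1 to newly copied DNA. The labels do not say whether replicates came from separate cultures, so the p-values measure the spread between these arrays, which may be technical.

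Cells use separate enzymes for protein synthesis in the cytosol and in mitochondria, and all of them are encoded in the nucleus. The cytosolic enzymes fall into class I and class II, which differ in the fold of the catalytic domain, and several of them sit together in the multi-synthetase complex on the scaffold proteins AIMP1, AIMP2 and EEF1E1. When amino acids are short or uncharged transfer RNA builds up, the transcription factor ATF4 is known to raise genes for amino acid synthesis, amino acid uptake and several cytosolic synthetases. GARS and KARS each give rise to the cytosolic and the mitochondrial enzyme of their amino acid, and EPRS carries glutamyl and prolyl activity in a single chain. Mitochondria lack a glutaminyl enzyme of their own and make that charged transfer RNA through an amidotransferase.

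Values are log2 signals relative to the 75th percentile of the same array, and a gene was called when limma's Benjamini-Hochberg adjusted p over all probes was below 0.05. A gene was represented by its brightest probe. The 36 genes had 42 probes, all 36 passed the filter on dim probes, and 35 were well above background on all 9 arrays. The exception was MARS2, the mitochondrial methionyl enzyme. The median difference between the arrays of a group over these genes was 0.039 in siCONT and 0.042 in siCONT + TSA, against 0.15 in siUHRF1 and 0.17 in siUHRF1 + TSA. The siRNA arrays shared 1 slide and 1 scan. On that slide the row went with TSA and the column with the siRNA, so these cannot be told apart from the treatments. The targeted gene UHRF1 was at 2.69 and 2.69 in siCONT and at 0.36 and 0.07 in siUHRF1, with no overlap. With TSA it changed by 0.18 in control cells, without a call, and by -0.70 in depleted cells, called lower. The difference of these TSA effects was -0.88, not called by limma but at an unadjusted p below 0.05. On the 5-aza-dC array UHRF1 was called higher (1.00). The part of the UHRF1 level in the synthetase results was not tested. The epithelial genes KRT8 and KRT18 were above background on 9 of 9 arrays, KRT19 on 3, EPCAM on 2 and CDH1 on 0. Of the colon genes, CDX2 was above background on 9 of 9 arrays and VIL1 on 0. The name of the line comes from the sample labels, and these markers were mixed. Of the markers of other cell types, COL1A1 was above background on 9 arrays, PTPRC on 6 and PECAM1 on 0. In control cells given TSA neither COL1A1 (1.32) nor PTPRC (0.01) was called by limma, though 1 of these 2 was higher at an unadjusted p below 0.05. VIM, a mesenchymal gene, rose by 2.88 with TSA in control cells, from -0.39 and -0.43 to 2.49 and 2.45. The part of these markers in the synthetase results was not tested.

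With TSA alone a subset of the cytosolic synthetases fell, while few mitochondrial ones were called. In siCONT + TSA against siCONT, 7 of 20 cytosolic genes were lower and 0 higher, while 1 of 16 mitochondrial genes was lower and 1 higher. Over all 17714 gene names tested, 3.86% were called lower and 7.01% higher. At an unadjusted p below 0.05, 1 cytosolic gene was higher. The 7 that fell were CARS, WARS, AARS, GARS, YARS, IARS and EPRS, with log2 fold changes from -1.38 to -0.73. The median log2 fold change was -0.26 over the cytosolic genes and 0.02 over the mitochondrial genes, beside 0.08 over all gene names tested. In RNA from a whole culture, a lower signal in every cell and a loss of signal from some cells cannot be told apart.

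CARS, which charges the cysteine transfer RNA, was at 1.19 and 1.31 in siCONT and at -0.09 and -0.17 in siCONT + TSA. The siUHRF1 arrays were at 1.41 and 1.25 and the siUHRF1 + TSA arrays at 0.34 and -0.21. All 4 arrays with TSA were below all 4 siRNA arrays without it. Here and below, the share of all gene names with such an order was not counted. The change with TSA in control cells was -1.38 (standard error 0.19, adjusted p = 0.014), a 2.60-fold fall. WARS, the tryptophanyl enzyme, was at 3.87 and 3.85 in siCONT, 3.77 and 3.73 in siUHRF1, 2.58 and 2.52 in siCONT + TSA and 2.75 and 2.20 in siUHRF1 + TSA. Its siRNA groups with and without TSA did not overlap, and the change in control cells was -1.31 (standard error 0.18, adjusted p = 0.014). AARS, the alanyl enzyme, was at 3.12 and 3.18 in siCONT, 3.25 and 3.12 in siUHRF1, 1.92 and 1.81 in siCONT + TSA and 2.16 and 1.82 in siUHRF1 + TSA. It fell by 1.28 in control cells given TSA (standard error 0.14, adjusted p = 0.01), again with no overlap.

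GARS, the glycyl enzyme of both compartments, was at 2.72 and 2.80 in siCONT and at 1.84 and 1.82 in siCONT + TSA. With UHRF1 depletion its arrays lay further apart, at 2.87 and 2.52 in siUHRF1 and at 2.03 and 1.45 in siUHRF1 + TSA. It fell by 0.93 in control cells (standard error 0.21, adjusted p = 0.0435), the closest of the 7 to the threshold. YARS, the tyrosyl enzyme, was at 2.34 and 2.31 in siCONT and at 1.41 and 1.51 in siCONT + TSA, a change of -0.87. IARS, the isoleucyl enzyme, changed by -0.85 and EPRS by -0.73 (adjusted p = 0.0109 and 0.0264). Nearest to the threshold without a call stood TARS, the threonyl enzyme, at -0.39 (adjusted p = 0.0669), and RARS, the arginyl enzyme, at 0.35 (adjusted p = 0.0771). The other 11 cytosolic genes had values between -0.29 for SARS and 0.27 for QARS, and none of them was called.

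When any of the 2 siCONT or 2 siCONT + TSA arrays was left out, limma called 0 of the 36 genes, with 10 or 11 of them at an unadjusted p below 0.05. Each of the 9 called genes kept its sign in those fits, and across the alternatives the log2 fold change of CARS stayed between -1.56 and -1.20 and that of AARS between -1.47 and -1.23. Scaling on the spike-in probes, which lowered the median of all probes to -0.12, left 5 cytosolic genes called (AARS, CARS, IARS, WARS and YARS).

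**Figure D1:**
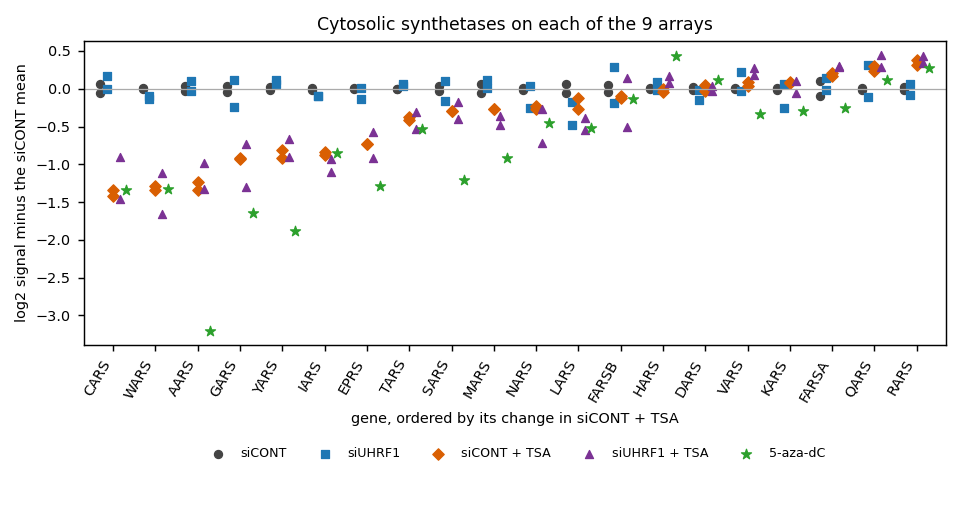
Log2 signal of the 20 cytosolic synthetases on each array, minus the mean of the 2 siCONT arrays. Each symbol is 1 array, with shape and colour for the group. From CARS on the left to EPRS, the 4 arrays with TSA lie below the 4 siRNA arrays without it. The single 5-aza-dC array is lowest for AARS at -3.21.

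Among the mitochondrial genes, VARS2 and FARS2 moved in opposite directions under TSA. These counts, 1 of 16 higher and 1 of 16 lower, were near the 7.01% and 3.86% of all gene names. VARS2, the valyl enzyme, was at 4.18 and 4.14 in siCONT and at 4.90 and 4.82 in siCONT + TSA. It was at 4.18 and 4.37 in siUHRF1 and at 5.06 and 4.98 in siUHRF1 + TSA, so that every array with TSA was above every array without it. The rise in control cells was 0.70 (standard error 0.10, adjusted p = 0.0169). FARS2, the phenylalanyl enzyme, was at 0.37 and 0.32 in siCONT, 0.45 and 0.31 in siUHRF1, -0.31 and -0.34 in siCONT + TSA and -0.06 and -0.11 in siUHRF1 + TSA. It fell by 0.67 in control cells (standard error 0.095, adjusted p = 0.0151), and its TSA arrays were all below the other siRNA arrays. With normexp background correction and with spike-in scaling neither gene was called in this comparison.

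SARS2, the seryl enzyme, was at 1.23 and 1.19 in siCONT, 1.26 and 1.61 in siUHRF1, 1.76 and 1.72 in siCONT + TSA and 1.99 and 2.08 in siUHRF1 + TSA. Its TSA arrays were above the others, but the change of 0.53 in control cells was not called (adjusted p = 0.0571). WARS2, the tryptophanyl enzyme, was at 0.26 and 0.29 in siCONT, 0.24 and 0.26 in siUHRF1, 0.58 and 0.57 in siCONT + TSA and 0.66 and 0.54 in siUHRF1 + TSA. The change in control cells was 0.30 (adjusted p = 0.0855) without a call. Its TSA arrays too were above the others, an order not counted over all gene names. MARS2 was well above background in both siCONT arrays, at -3.61 and -3.57, and in neither siCONT + TSA array, so only a bound can be given, and siCONT was at least 1.42-fold higher (adjusted p = 0.323, not called). The remaining 11 mitochondrial genes had values between -0.25 for NARS2 and 0.21 for LARS2, with none called.

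**Figure D2:**
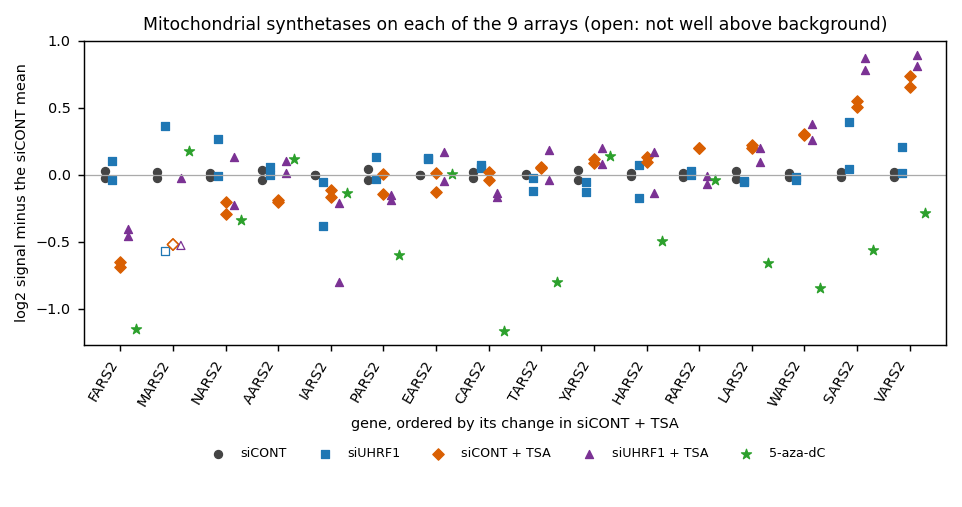
Log2 signal of the 16 mitochondrial synthetases on each array, minus the mean of the 2 siCONT arrays, drawn as for the cytosolic genes, with open symbols where the probe was not well above background. VARS2 and SARS2 at the right have all 4 TSA arrays above the 4 other siRNA arrays, and FARS2 at the left has them below. The open symbols belong to MARS2.

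The cytosolic and the mitochondrial enzyme of the same amino acid were paired by symbol for 13 amino acids. Phenylalanine (FARSA and FARSB with FARS2) and glutamate and proline (EPRS with EARS2 and PARS2) were left out of these pairs. For phenylalanine the order was reversed, since FARS2 was called lower (-0.67) while FARSA and FARSB changed less, without a call. EPRS was called lower, and EARS2 and PARS2 were not called. In siCONT + TSA against siCONT the change of the cytosolic enzyme was below that of the mitochondrial enzyme for 11 of 13, with a median difference of -0.64. Tryptophan was at the extreme, with WARS at -1.31 and WARS2 at 0.30, a difference of -1.61. Cysteine followed with CARS at -1.38 and CARS2 at -0.01, and alanine with AARS at -1.28 and AARS2 at -0.20. CARS2 was at 6.26 and 6.22 in siCONT and at 6.26 and 6.20 in siCONT + TSA, which overlap. AARS2 was at 1.83 and 1.75 in siCONT and at 1.60 and 1.58 in siCONT + TSA, lower in both arrays but not called (adjusted p = 0.215). The exceptions among the 13 were arginine, with RARS above RARS2 by 0.15, and methionine, where the MARS2 value is only a bound. These differences are a description over 13 pairs, with no test.

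**Figure D3:**
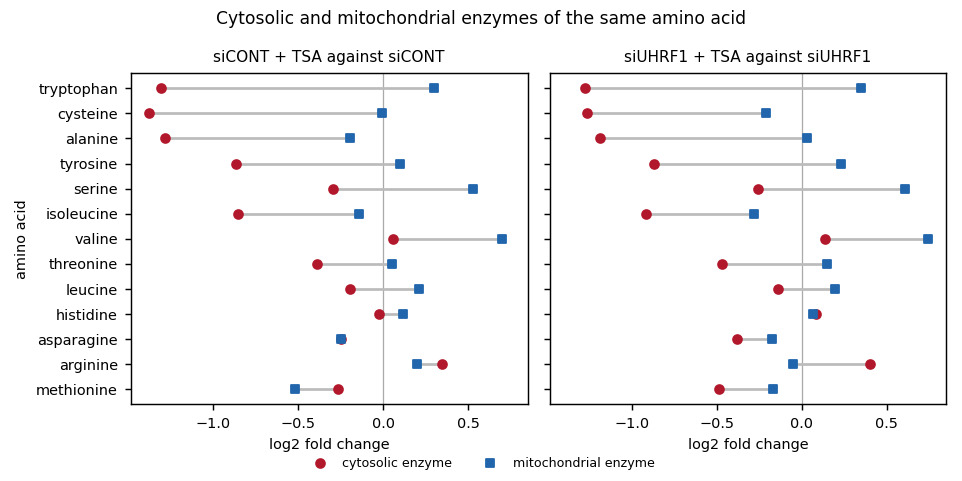
Log2 fold change with TSA of the cytosolic (circle) and the mitochondrial (square) enzyme for the 13 amino acids paired by symbol. Control cells are on the left and UHRF1-depleted cells on the right. Phenylalanine, glutamate and proline are not drawn. The circle lies to the left of the square for 11 of 13 amino acids in each panel (11 and 10 of 12 without methionine, since MARS2 was below background on some arrays), and the longest line is that of tryptophan, -1.61 and -1.62.

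By structural class, of 10 class I enzymes 5 were lower under TSA alone, with a median of -0.50, and of 10 class II enzymes 2 were lower, with a median of -0.18. Of 8 enzymes that belong to the multi-synthetase complex 2 were lower, IARS and EPRS, and the median was -0.09. Of 12 outside it 5 were lower, with a median of -0.34. No test compared these classes, and all of these shares stand beside the 3.86% of gene names called lower. The complex scaffolds themselves, AIMP1, AIMP2 and EEF1E1, were not called, with 0 of 3 in either direction by limma and 1 lower at an unadjusted p below 0.05. AIMP2 changed by -0.33 (adjusted p = 0.115).

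Several genes had more than 1 probe. The 3 probes of IARS changed by -0.85, -1.12 and -0.60 under TSA alone, and the dimmest of them was not called (adjusted p = 0.145). The brightest probe of SARS, the cytosolic seryl enzyme, was at 6.13 and 6.19 in siCONT and at 5.86 and 5.87 in siCONT + TSA, with a change of -0.29 that was not called (adjusted p = 0.194). A second SARS probe, annotated to a non-coding variant, was at 1.97 and 1.99 in siCONT and lower in both siCONT + TSA arrays, and it was called (-0.82, adjusted p = 0.0336). The third SARS probe changed by -0.51 without a call. The 2 probes of MARS, the cytosolic methionyl enzyme, changed by -0.27 and -0.62, neither called. The sign was the same for all probes of these 3 genes, but the size for SARS depends on the probe. A second TARS2 probe was not well above background on any of the 9 arrays and was not tested.

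The start regions of these genes were searched for the C/EBP-ATF composite element, the letters TGATGNAA on either strand, because ATF4 with a C/EBP partner is known to bind it. Promoters (250 bases before to 50 after a transcription start) came from RefSeq on GRCh38.p14, where 30 of the 36 genes had an entry; AARS2, DARS, LARS, VARS, VARS2 and YARS did not match. Symbols such as AARS were matched to their current form, AARS1. The element was found for 7 of 16 cytosolic genes (43.8%), AARS, CARS, GARS, IARS, MARS, NARS and TARS, and for 1 of 14 mitochondrial genes (7.14%), YARS2. Of all genes with a promoter entry, 4.46% held it, a gene counting where any of its promoters did. Per promoter the shares were 33.3%, 5.56% and 3.62%. The stretches are shown because 5 of them, all cytosolic, hold the same 8 letters. They run 5′ to 3′ on the strand of the gene and end at most 10 bases past the start, and capitals mark the element.
CARS (chr11:3057414-3057465, minus strand): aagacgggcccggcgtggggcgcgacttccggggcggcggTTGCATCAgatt
AARS (chr16:70289646-70289733, minus strand): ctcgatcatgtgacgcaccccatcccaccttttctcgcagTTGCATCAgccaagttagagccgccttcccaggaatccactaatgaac
IARS (chr9:92293688-92293750, minus strand): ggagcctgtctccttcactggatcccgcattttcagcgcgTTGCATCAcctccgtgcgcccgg
MARS (chr12:57488024-57488077, plus strand): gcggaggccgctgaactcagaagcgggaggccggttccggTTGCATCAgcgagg
TARS (chr5:33440927-33440974, plus strand): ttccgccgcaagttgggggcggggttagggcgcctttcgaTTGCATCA
GARS (chr7:30594805-30594887, plus strand): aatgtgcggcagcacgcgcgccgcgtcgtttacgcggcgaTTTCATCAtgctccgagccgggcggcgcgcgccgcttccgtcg
YARS2 (chr12:32756047-32756134, minus strand): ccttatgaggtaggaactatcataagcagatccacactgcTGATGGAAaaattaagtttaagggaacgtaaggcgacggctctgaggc
CARS, IARS, MARS and TARS carried the letters within 13 bases of the annotated start and GARS 33 bases before it, while in AARS they began 187 bases before it. Of the 7 genes that fell under TSA alone, CARS, AARS, GARS and IARS had a match, and WARS and EPRS had none in these windows. MARS, TARS and NARS, which hold a match too, changed by -0.27, -0.39 and -0.25 without a call. In NARS the letters begin 14 bases past the start, outside the stretches printed. They are TGATGCAA, which is TTGCATCA read on the opposite strand. A match is a run of letters and not a measured binding site.

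UHRF1 depletion alone left the synthetases without a detectable change. In siUHRF1 against siCONT, limma called 0 of 36 genes in either direction, and 0 passed an unadjusted p below 0.05. The methods' t-test gave 3 unadjusted and 0 after Benjamini-Hochberg. Over all gene names 0.61% were called higher and 0.0282% lower. The values ran from -0.32 for LARS, the leucyl enzyme, to 0.22 for SARS2. LARS was at 2.50 and 2.62 in siCONT and at 2.09 and 2.39 in siUHRF1, with 95% limits of -0.66 to 0.01 on the change. For the genes that fell with TSA the 95% limits did not reach the fall seen with TSA. They were -0.37 to 0.54 for CARS, -0.54 to 0.32 for WARS, -0.29 to 0.37 for AARS and -0.57 to 0.44 for GARS.

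Under TSA, UHRF1 depletion added no called change either. In siUHRF1 + TSA against siCONT + TSA, limma called 0 of 36 genes, 3 passed an unadjusted p below 0.05 (AARS2, FARS2 and RARS2), and the methods' t-test gave 5 unadjusted and 0 after Benjamini-Hochberg. Beside this, 3.22% of all gene names were called higher and 0.581% lower. The values ran from -0.36 for IARS2, the mitochondrial isoleucyl enzyme, to 0.29 for SARS2 (adjusted p = 0.443 and 0.329). AARS2 was at 1.60 and 1.58 in siCONT + TSA and at 1.89 and 1.80 in siUHRF1 + TSA, and both depleted arrays were higher (0.26, adjusted p = 0.224).

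The comparison of TSA in UHRF1-depleted cells used none of the arrays of TSA in control cells, though both were fitted with 1 estimate of spread. In siUHRF1 + TSA against siUHRF1, 9 of 20 cytosolic genes were lower and 1 was higher, and 1 of 16 mitochondrial genes was lower and 2 higher. Over all gene names 5.49% were lower and 10.8% higher, and the mitochondrial counts were near those shares. The 7 cytosolic genes that fell in control cells fell here too. WARS changed by -1.28 (standard error 0.18, adjusted p = 0.00964), CARS by -1.27 (0.19, adjusted p = 0.0114), AARS by -1.19 (0.14, adjusted p = 0.00563) and GARS by -0.96 (0.21, adjusted p = 0.0323). MARS and TARS joined them at -0.49 and -0.47 (adjusted p = 0.0264 and 0.0346). RARS rose by 0.40, from 4.46 and 4.61 in siUHRF1 to 4.97 and 4.89 in siUHRF1 + TSA (adjusted p = 0.0449). That call was kept under 5 of 17 alternatives and was lost with the replicate number as a block (adjusted p = 0.0635) and with the block within siRNA. The TARS call too was lost with the replicate number as a block, and over the alternatives the calls of TARS, FARS2 and SARS2 were each kept under 7 of 17. The EPRS call was kept under 8 of 17, the GARS call under 9 and the MARS call under 10.

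Among the markers, VIM (3.08), KRT18 (0.56) and KRT19 (at least 4.69-fold, not above background in siUHRF1) were called higher in this comparison, and their part was not tested. VARS2 and SARS2 rose by 0.74 and 0.60 in the depleted cells (adjusted p = 0.00986 and 0.0328), and FARS2 fell by 0.46 (adjusted p = 0.027). WARS2 changed by 0.35 and lay on the threshold without passing it (adjusted p = 0.0500044). Fitted on the 4 arrays compared alone, this comparison called 1 member, and without siUHRF1 replicate 1, either siCONT array or either siCONT + TSA array it called 6. Without siUHRF1 + TSA replicate 2 it called 7. Under the 17 alternatives that give single genes, AARS, IARS, WARS and YARS kept their calls in all, and none of the 13 called members changed sign.

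Both TSA comparisons were close in size. Over the 20 cytosolic genes 19 had the same sign in both, over 15 mitochondrial genes, leaving out MARS2, 13, and over all gene names tested 81.9%. Pearson's r across genes was 0.99 for the cytosolic and 0.91 for those 15 mitochondrial genes, and 0.68 over all gene names. Genes are not independent replicates, and these values are a description. The test of the difference between the TSA effects called 0 of 36 members by limma, with 0 at an unadjusted p below 0.05, while 0.333% of gene names were called higher and 0.0282% lower. The difference had a median size of 0.074 over the 35 genes other than MARS2, which was below background on some arrays, and among these 35 the widest was -0.25 for RARS2. Its 95% limits were -0.53 to 0.76 for CARS, -0.58 to 0.64 for WARS and -0.37 to 0.56 for AARS, so differences within those limits are not excluded with 2 arrays a group.

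**Figure D4:**
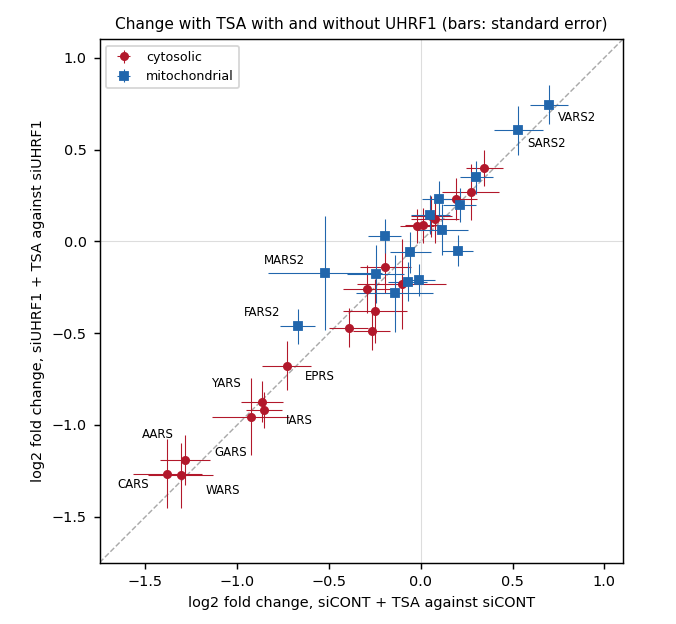
Log2 fold change with TSA of each of the 36 synthetases in control cells (horizontal) and in UHRF1-depleted cells (vertical), with standard errors from limma. The dashed line marks equal change, and the 7 cytosolic genes that fell, from CARS to EPRS, lie along it at the lower left, with VARS2 and SARS2 at the upper right.

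In siUHRF1 + TSA against siCONT, 9 of 20 cytosolic genes were lower and 1 was higher, beside 8.08% and 16.1% of gene names, and 1 of 16 mitochondrial genes was lower and 3 higher. The share of mitochondrial genes called higher was thus near that of all genes. The combination shares its control arrays with the comparison of TSA alone, so the values that follow are not separate support. WARS changed by -1.39 (standard error 0.18, adjusted p = 0.00442), CARS by -1.18 (0.19, adjusted p = 0.00834), AARS by -1.16 (0.14, adjusted p = 0.00339) and GARS by -1.02 (0.21, adjusted p = 0.0189). IARS was at -1.02 as well. SARS2 rose by 0.82 (standard error 0.13, adjusted p = 0.00881), VARS2 by 0.86 (0.10, adjusted p = 0.00385) and WARS2 by 0.32 (0.090, adjusted p = 0.0479). The WARS2 call was kept under 6 of 17 alternatives and the RARS call (0.39) under 6 of 17, and with the replicate number as a block neither was called (adjusted p = 0.0710 and 0.0530), nor was TARS. FARS2 changed by -0.43 (0.095, adjusted p = 0.0237), a call kept under 8 of 17 alternatives. The TARS call was kept under 8 of 17 as well and the MARS call under 9.

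The median was -0.42 over the cytosolic genes, 0.04 over the mitochondrial genes and 0.07 over all gene names. The change of the cytosolic enzyme was below that of the mitochondrial enzyme for 11 of the 13 amino acids paired by symbol. The differences were -1.71 for tryptophan, -1.22 for alanine and -1.11 for serine. For serine the brightest SARS probe was at -0.29 without a call, and with that probe the difference came mainly from SARS2. The size for SARS depends on the probe, as given above for TSA alone. The exceptions among the 13 were histidine and arginine. Phenylalanine is outside these pairs, with FARS2 called lower and FARSA and FARSB not called. Methionine is among the 11, and MARS2 was below background on 1 of the siUHRF1 + TSA arrays, so without that pair it was 10 of 12. Among the markers, VIM (2.71), COL1A1 (1.67), KRT18 (0.81) and KRT19 (at least 4.26-fold, not above background in siCONT) were called higher in the combination, and their part was not tested. Without either siCONT array 5 members were called, and without either siCONT + TSA array or without siUHRF1 + TSA replicate 2 there were 9.

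Many genes of the ATF4 and amino acid response were lower with TSA. The list, ATF4 itself included, was chosen with earlier results of these data known. It spans amino acid synthesis, transport and the transcription factors of the pathway and holds no synthetase. Of its 37 genes on the array, 34 were tested, and 24 were lower and 0 higher in siCONT + TSA against siCONT. Over all gene names 3.86% were called lower and 7.01% higher. None of the 34 was higher at an unadjusted p below 0.05 either. Their median log2 fold change was -0.86, and all 34 were below 0. NUPR1, a stress-induced chromatin protein, was at -0.31 and -0.17 in siCONT and not well above background in siCONT + TSA, where it was thus at least 14.99-fold lower (adjusted p = 0.00384). In siUHRF1 + TSA, NUPR1 was above background on both arrays, with a mean of -1.92, at least 4.68-fold higher than in siCONT + TSA. SLC7A11, the cystine transporter, fell by 1.86, from 3.39 and 3.42 to 1.55 and 1.54. DDIT3, the factor CHOP, fell by 1.82, from 3.05 and 3.06 to 1.19 and 1.29.

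ATF4 itself was at 7.75 and 7.79 in siCONT and at 7.63 and 7.61 in siCONT + TSA, with a change of -0.15 (adjusted p = 0.523) that the test did not pass. These arrays do not measure its protein, and the part of ATF4 in these changes was not tested. In the combination 27 of 34 were lower and 1 was higher, beside 8.08% and 16.1% of all gene names, and ATF4 was among those lower (-0.56, adjusted p = 0.0346), at 7.33 and 7.09. DDIT3 fell by 2.46 and CTH, which makes cysteine from cystathionine, by 2.36. The gene that rose was CBS, the enzyme before CTH. It was above background in neither siCONT nor siCONT + TSA and was at least 14.1-fold higher in siUHRF1 + TSA than in siCONT (adjusted p = 0.00265). It was at least 9.31-fold higher in siUHRF1 as well, without TSA (adjusted p = 0.0329). On the 5-aza-dC array 29 of 36 genes of this group were lower and 3 higher, beside 24.1% and 24.8% of all gene names.

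Other parts of the translation machinery are given by their counts. Of 15 mitochondrial translation factors tested, 1 was higher and 0 lower under TSA alone, beside 3 higher and 1 lower at an unadjusted p below 0.05, a share near the 7.01% of all gene names called higher. The called gene was MTRF1L, a release factor, which went from 0.00 and -0.04 to 0.56 and 0.57, a change of 0.58 (adjusted p = 0.0293). In the combination MTRF1L was again higher and MTO1, which modifies mitochondrial transfer RNA, was lower (-0.62, adjusted p = 0.0488). These were 1 of 15 higher and 1 of 15 lower, beside 16.1% and 8.08% of all gene names. Of 6 genes for cytosolic elongation factors and EEF2K, the kinase that inhibits EEF2, limma called 0 under TSA alone, with 1 at an unadjusted p below 0.05. In the combination 1 of 6 was called higher, the kinase gene EEF2K (0.35). That share was near the 16.1% of all gene names called higher. Of 3 genes for editing in trans, 0 were called in both comparisons, with 1 at an unadjusted p below 0.05.

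**Figure D5:**
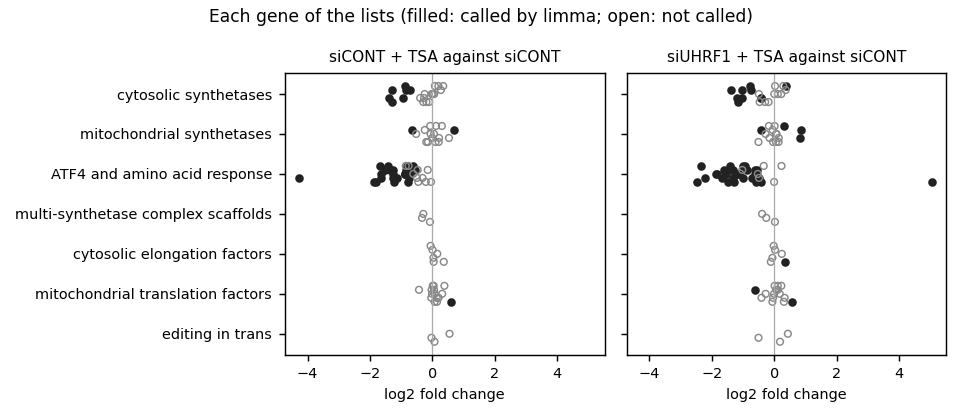
Log2 fold change of each gene of 7 groups in siCONT + TSA against siCONT (left) and siUHRF1 + TSA against siCONT (right), 1 point a gene, filled where limma called it. Filled points left of 0 are found mostly in the cytosolic synthetases (7 and 9) and in the ATF4 and amino acid response genes (24 and 27), and the lone point at the far right is CBS.

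Among the 36 synthetases, those whose profile was most like that of WARS over the 8 siRNA arrays were EPRS, IARS and TARS, with Pearson's r of 0.995, 0.990 and 0.987. For CARS, the cytosolic gene of largest change under TSA alone, they were AARS, YARS and EPRS, with 0.996, 0.990 and 0.986. The points are arrays of 4 groups, 4 of them with TSA, and no p is given.

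With 5-aza-dC the fall took in both compartments. The comparison rests on 1 array, read on another slide and in another scan than the siRNA arrays, without siRNA, and the fit gives its single value the spread of the siRNA groups. The 75th percentile of its signal was 822, against 245 to 338 on the siRNA arrays. Batch and treatment cannot be told apart. VIM (6.07), EPCAM (4.69, above background on 1 siCONT array) and KRT19 (at least 13.3-fold) were called higher on this array, and their part was not tested. Against siCONT, 10 of 20 cytosolic genes were lower and 1 higher, and 7 of 16 mitochondrial genes were lower and 0 higher, also at an unadjusted p 0 higher, beside 24.1% lower and 24.8% higher over 20162 gene names. Scaling on spike-in probes put all 36 members lower, with the median of all probes at -1.68, so the direction of single genes near 0, HARS included, depends on the scaling.

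AARS was at -0.06 on the 5-aza-dC array, against 3.12 and 3.18 in siCONT, so it fell by 3.21 (standard error 0.17, adjusted p = 6.26e-05). YARS was at 0.45 and fell by 1.88 (standard error 0.14, adjusted p = 0.000229). GARS was at 1.11 and fell by 1.65 (0.26, adjusted p = 0.0038), and CARS was at -0.09 and fell by 1.34 (0.24, adjusted p = 0.00553). On the TSA arrays AARS lay between 1.81 and 2.16, above the 5-aza-dC array. Its mitochondrial counterpart AARS2 was at 1.91 without a call (0.12). Of the mitochondrial genes, CARS2 fell by 1.17, from 6.26 and 6.22 to 5.07 (adjusted p = 0.000476), and FARS2 fell by 1.15, from 0.37 and 0.32 to -0.80 (adjusted p = 0.000726). WARS2 was at -0.57 and fell by 0.85 (adjusted p = 0.00182) and TARS2, the threonyl enzyme, was at 1.23 and fell by 0.80, from 2.02 and 2.03 (adjusted p = 0.0044). SARS2, called higher in the combination, was lower with 5-aza-dC (-0.56), a call kept under 10 of 17 alternatives. HARS, the histidyl enzyme, was higher by 0.43 (adjusted p = 0.0237) and changed to -1.26 under spike-in scaling.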

How the data were processed

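RNA of RKO cells was labelled with Cy3 and hybridized to Agilent SurePrint G3 Human GE v2 microarrays. Per the labels, the authors extracted spots with Agilent Feature Extraction 10.7, and the deposited intensity values are background-subtracted and detrended within the array, with no normalization between arrays. The deposited value table holds the same intensity rounded. Log2 intensity was shifted by each array's 75th percentile, outlier spots were left out and spots of a probe were averaged. Probes well above background on every array of at least 1 group entered (23699 probes on the 8 siRNA arrays, 27140 on 9). limma 3.58.1 in R 4.3.3 (lmFit, eBayes) was fitted to 4 siRNA groups or to all 9 arrays, with Benjamini-Hochberg adjustment. The procedure was tested on simulated data that gave a probe the same spread in every group. The arrays with UHRF1 depletion lay further apart than the others, so that test does not cover the unequal spread. The study's methods name GeneSpring for the arrays and t tests or ANOVA for continuous variables. Its legend for the RKO arrays selects genes by P, and its results text, for another line, by P and fold. The normalization between arrays and any correction for multiple tests are not given in the sources used here. The t test was run as an alternative (the methods' t-test). The number of arrays limits the precision.

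The 36 members are the cytosolic and mitochondrial synthetases by symbol. Members and lists were chosen with earlier results of these data known. Per-array values were given for up to 4 called genes of each compartment and comparison, the 3 amino acids of widest difference and any gene below background, and from other lists for UHRF1, ATF4 and the 3 called genes of largest change. IARS, EPRS, LARS, RARS, MARS, TARS, HARS, VIM, AIMP2 and the genes at the ends of ranges were named after their values were seen. A bound sets a group below background at the lowest signal called above background on each array. Alternatives covered background correction, scaling, filter, outlier spots, value table, replicate blocks, arrays left out, prior, the methods' t-test, threshold and probe choice. Values without MARS2 were added after seeing the data. Replicate numbers were not used as pairs, since deviations of same-numbered arrays correlated between -0.047 and 0.080 except for siUHRF1 with siUHRF1 + TSA (0.47), which share an siRNA.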

Additional observations from a re-analysis of the deposited data

How the results depend on the processing

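Counts below are members called of 36 for TSA alone, the combination and TSA in UHRF1-depleted cells, against 9, 14 and 13. Normexp background correction gave 7, 9 and 6, spike-in scaling 5, 11 and 6, no filter 6, 8 and 6, the arrays compared alone 22, 10 and 1, and a change over 2-fold 3, 5 and 3. The methods' t-test gave 26, 14 and 11 unadjusted and 15, 0 and 0 after Benjamini-Hochberg, and 3 and 5 unadjusted for UHRF1 depletion without and with TSA. Leaving out each array gave 0 to 11, 5 to 16 and 6 to 15. For 5-aza-dC, against 18, normexp gave 11, a change over 2-fold 9 and spike-in scaling 36, which also turned DARS to -1.58, HARS to -1.26, QARS to -1.57, RARS to -1.42, AARS2 to -1.57, EARS2 to -1.69, MARS2 to -1.51 and YARS2 to -1.55. The replicate block gave 9, 11 and 11, and within siRNA 10 and 13 for the TSA comparisons, so the pairing moved no count by over 1.5 times. Median log2 fold changes over the cytosolic genes, -0.26, -0.42 and -0.32 in the same order, were -0.38, -0.52 and -0.43 with quantile normalization and -0.44, -0.58 and -0.50 with spike-in scaling, and the mitochondrial ones, 0.02, 0.04 and -0.01, were -0.050, -0.018 and -0.041 and -0.16, -0.12 and -0.19. Normexp gave -0.49 (cytosolic) and -0.075 (mitochondrial) for TSA alone and 0.025 (mitochondrial) for TSA in depleted cells, where a filter on every array gave 0.030 (mitochondrial) and the mean over probes -0.43 (cytosolic). Leaving out each array gave cytosolic medians of -0.52 to -0.29 in the combination and -0.49 to -0.15 for TSA in depleted cells, and mitochondrial medians of -0.011 to 0.043 and -0.018 to 0.039. All other alternatives left the counts within 1.5 times, and no called member changed sign outside 5-aza-dC. Slide and scan could not be fitted as blocks, since all siRNA arrays share both. The cause of these shifts was not tested. With 2 arrays a group, changes well under 1 on the log2 scale can be missed.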
